A study of Mus musculus with 24 samples.

Results

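Messenger RNAs of collagen matrix and of activated fibroblasts were followed in CD11b+ cells that were taken from mouse spleen or bone marrow after myocardial infarction (MI). The 10 genes were Col1a1, Col1a2, Col3a1, Fn1, Sparc, Postn, Bgn, Acta2, Lox and Timp1, of 20659 genes with a symbol on the array. They were chosen by name, and each was read from the non-control probes whose RefSeq transcript maps to its symbol. Fibrillar collagens are secreted as triple helices, trimmed outside the cell and cross-linked into fibres, and glycoproteins and proteoglycans bind to these fibres and to cells. In an injured heart this matrix is laid down mainly by fibroblasts and myofibroblasts and forms the scar. CD11b is an integrin chain of neutrophils, monocytes and macrophages, cells better known for removing and remodelling matrix than for making fibrillar collagen.

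The arrays compared WT mice with HDC-KO mice, which lack histidine decarboxylase, the enzyme that makes histamine, and with STAT6-KO mice, which lack a transcription factor of the interleukin-4 pathway. Per the labels and the methods of the study, the mice were male, on a Balb/C background and 10 weeks old. They were controls or were studied 1, 2, and 4 weeks after MI. CD11b+ cells from the spleen or the bone marrow of 5 mice made up each array, and a condition had 1 array, so that no condition had replicates and variation among mice was not measured. Of 24 arrays 22 were used, 11 from spleen and 11 from bone marrow; 2 held too few spots, for control HDC-KO spleen and for STAT6-KO bone marrow at MI 1 week. Between 70.4% and 79.8% of the spots of an array were well above background. Values below are log2 signals minus the 75th percentile of the array, so that 0 is the 75th percentile, and a signal not well above background is only a bound. Probes differ in their response, so levels were compared between arrays; the brightest probe of a marker list is named as a description and does not rank its genes by abundance.

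The labels were checked first. Hdc reached at most 2.78 on HDC-KO arrays (n = 7), where it stayed well above background on 7 of 7, and was at least 4.32 on WT arrays (n = 8). Stat6 was read by 3 probes, whose ranges overlapped between STAT6-KO (n = 7) and WT arrays. Their medians were 2.32, -0.68 and -0.96 in STAT6-KO and 2.85, 1.04 and 0.91 in WT, and whether a probe lies in the deleted part was not tested. Xist, the RNA that silences an X chromosome in female cells, was read by 2 probes. The probe with the larger contrast was well above background in 7 of 7 HDC-KO (-1.81 to -0.74), 2 of 7 STAT6-KO and 0 of 8 WT arrays. The other was well above background in 7 of 7, 6 of 7 and 5 of 8 arrays, at -3.31 to -2.05 in HDC-KO and -7.31 to -5.42 in WT. The HDC-KO arrays thus went against the label male, and sex cannot be told apart from genotype in HDC-KO against WT. On STAT6-KO arrays the first of these probes ran from -9.36 to -2.06 (WT at most -7.85). The other ran from -6.07 to -3.51 (WT at most -5.42). The label male is thus in doubt for some STAT6-KO arrays as well, and the part of sex in STAT6-KO against WT was not tested. The CD11b+ myeloid markers were present: 7 of 7 were well above background on every array, with the probe of S100a9, a neutrophil and monocyte protein, the brightest on 16 of 22 arrays. Their summed signal, in units of the 75th percentile, lay between 148 and 269 in spleen and between 231 and 402 in bone marrow.

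A pair of bone marrow arrays stood apart. A list of 13 cardiac muscle genes, drawn up after values had been seen, was well above background in full on the STAT6-KO control and STAT6-KO MI 2 weeks arrays, and for 6 to 11 of 13 genes on the other bone marrow arrays. Its median was 0.87 on the MI 2 weeks array and -2.82 on the control array, against -6.18 to -4.29 on the others. The summed signal was 47.9 and 3.48 on these arrays and 0.943 to 2.05 on the others. The probe of Myh6, the cardiac myosin heavy chain, was the brightest on both, at 4.03 and 0.02. On the MI 2 weeks array 7 of the 10 matrix genes had their highest bone marrow value, as did 12 of 26 genes of a wider matrix list (46.2%), beside 9.95% of all genes. Of the marker lists used below, 5 of 8 fibroblast, 3 of 6 smooth muscle and pericyte and 3 of 7 CD11b+ myeloid genes were highest there too. The same held for 0 of 9 stroma and osteoblast, 0 of 7 endothelial and 0 of 7 macrophage genes. Among spleen arrays STAT6-KO MI 4 weeks had the highest cardiac median (-4.22, against -5.84 to -4.85) and sum (1.64, against at most 1.03). Of the 9 matrix genes counted in spleen it was the highest for 3, Col1a2, Col3a1 and Acta2, beside 10.9% of all genes. It was the lowest for 1, Timp1, beside 8.31% of all genes. HDC-KO MI 4 weeks, with a cardiac median of -5.63, was also the highest for 3 of the 9, beside 24.7% of all genes. The part of these transcripts in the matrix values was not tested, and member results that rest on the bone marrow pair are given with and without it.

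The tissues were compared first. In spleen minus bone marrow over 10 pairs of arrays, limma called 7 of the 10 genes at an adjusted p under 0.05, in a background of 54.5% of 27659 genes or transcripts, so that the number of calls alone says little about the group. Split by direction, 6 were lower in spleen, where 32.1% of the background was, and 1 was higher, where 22.4% was. Fewer cells of a type and less RNA per cell cannot be told apart in these pooled cells. Each slide held 1 genotype and 1 tissue, so that the tissues were compared only between slides. With slide as a random block in place of the pair the number called was 7 as well.

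The fibrillar collagens were lower in spleen. Col1a1, the α1 chain of type I collagen (chr11:94936224-94953042 in GRCm38.p6), had a median of -2.31 in spleen (-3.74 to -1.34, n = 11) and of 1.02 in bone marrow (-1.02 to 2.92, n = 11). Col1a2, its α2 partner chain (chr6:4505618-4541543), had a median of -3.42 in spleen (-3.67 to -2.30) and of -0.70 in bone marrow (-1.84 to 0.59). Neither gene had an array within the range of the other tissue, HDC-KO MI 4 weeks being the lowest bone marrow array and STAT6-KO MI 2 weeks the highest for each. Col3a1, the chain of type III collagen of young scar and of reticular fibres (chr1:45311538-45349706), had a median of -4.00 in spleen (-6.32 to -2.45) and of -1.47 in bone marrow (-3.53 to 2.18), with 7 of the 22 arrays inside the range of the other tissue. On the log2 scale Col1a1 fell by 3.30 from bone marrow to spleen (standard error 0.45, limma adjusted p = 7.0e-05), lower in 10 of 10 pairs. Col1a2 fell by 2.41 (standard error 0.30, adjusted p = 3.5e-05), also in 10 of 10 pairs, and an exact two-sided sign-flip test over pairs gave p = 0.00195 for each, the smallest it can give. The sign-flip test and the paired limma fit take the 10 pairs as independent, although they come from 3 slides of each tissue. Col3a1 fell by 2.39 (standard error 0.67, adjusted p = 0.00967), with 9 of 10 pairs in that direction (exact p = 0.00391). Among all differences of the comparison these stood at the 0.148th, 1.07th and 1.12th percentile. Without the STAT6-KO bone marrow control and MI 2 weeks arrays the differences were -2.80, -2.30 and -1.38, all called, Col3a1 with an adjusted p of 0.0127. An alternative added after seeing the data took the 6 pairs in which the Xist probe with the larger contrast was not well above background. In it Col3a1 had -2.26 and a limma adjusted p of 0.0569.

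Postn went the other way. It encodes periostin, a matricellular protein of activated fibroblasts that helps collagen cross-linking (chr3:54359267-54391041). Its signal had a median of 1.52 in spleen (-1.14 to 2.42) and of -4.57 in bone marrow (-6.57 to -0.31), and was well above background on 11 of 11 spleen and 10 of 11 bone marrow arrays. Postn was higher in spleen by 5.24 (standard error 0.50, adjusted p = 4.5e-06), in 10 of 10 pairs (exact p = 0.00195), at the 99.9th percentile of all differences. The STAT6-KO MI 2 weeks array held the highest bone marrow value, and without both arrays named above the difference was 5.77.

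The spleen values of Postn followed the macrophage markers. In WT spleen Postn stood at 2.21 in control mice and at -1.14, -1.03 and -0.87 at 1, 2, and 4 weeks after MI. HDC-KO spleen had 1.66, 0.83 and 1.52 at these weeks, and STAT6-KO spleen had 1.59 in control mice and 2.42, 1.59 and 0.96 afterwards. The WT arrays after MI were thus the lowest of the 11, and the WT control array lay among the knockout arrays. The macrophage list (8 of 8 genes well above background on every spleen array) had a median of 3.03 in WT control spleen and of 1.44, 1.48 and 1.38 after MI. Its summed signal was 114 in WT control spleen, at most 52.4 after MI, and 67.5 to 142 in the knockout spleens, with the probe of Vcam1 or Adgre1 (the F4/80 antigen) the brightest. Across the 11 spleen arrays Postn and the median of this list had a Pearson r of 0.967 and a Spearman rho of 0.882. Without the 2 farthest arrays, WT at 1 and 4 weeks after MI, r was 0.937. The WT 2 weeks array stayed in, so this r does not describe the relation apart from the WT arrays after MI. The relation was computed for Postn after its values were seen, the arrays share slides by genotype, and the part of macrophage transcripts in Postn was not tested.

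**Figure D1:**
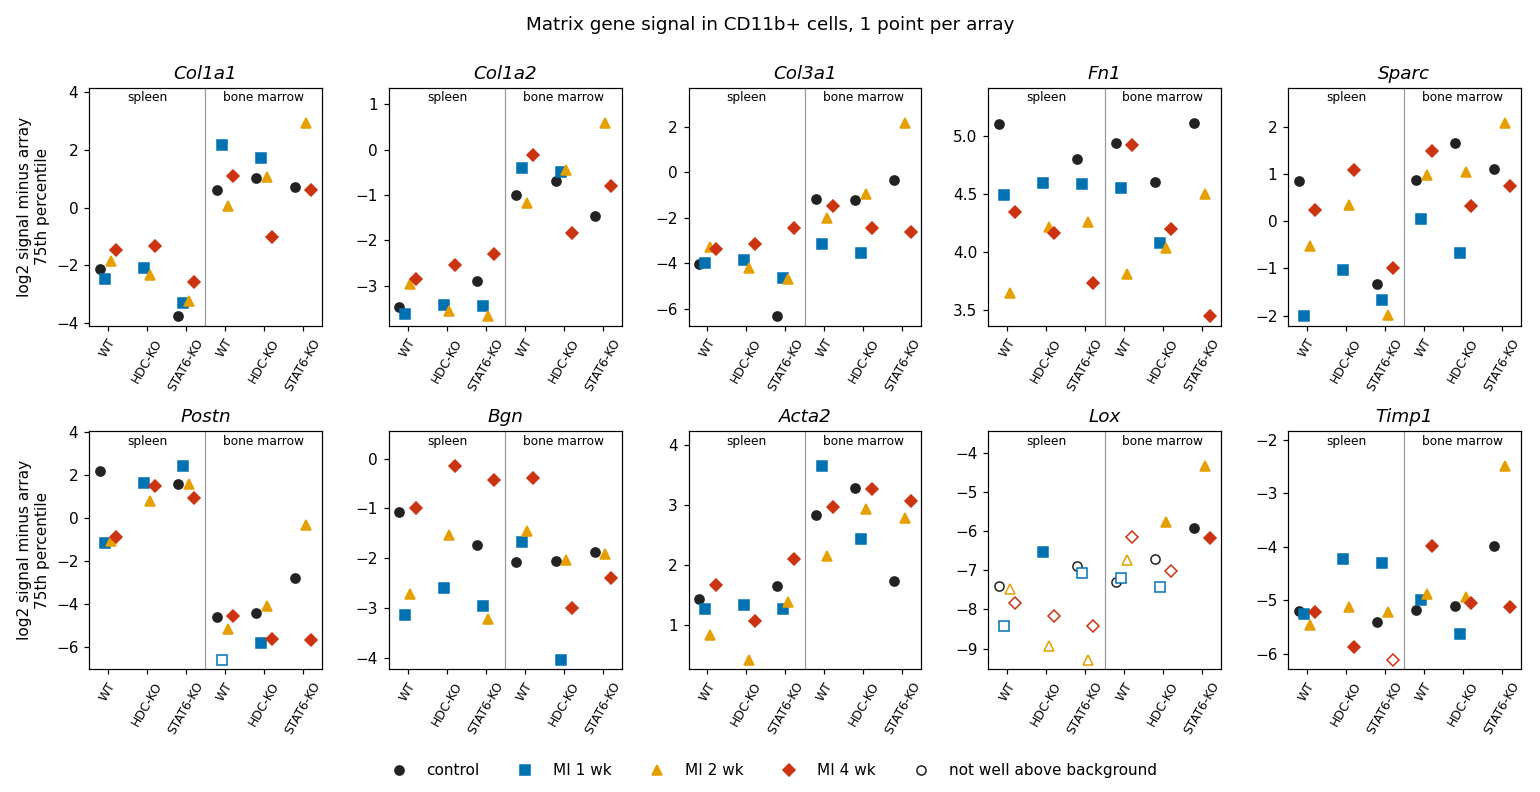
Log2 signal minus the 75th percentile of the array (vertical axes) for the 10 matrix genes, by tissue and genotype (horizontal axes), with 1 point per array, shape and colour for the time after MI and open points for signals not well above background. Col1a1 and Col1a2 did not overlap between tissues, Postn was higher in spleen by 5.24, and for Col3a1 the highest bone marrow array was STAT6-KO at MI 2 weeks, at 2.18.

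Of the remaining glycoproteins and the proteoglycan, Sparc was called between tissues. Fn1, fibronectin, which links cells to collagen and is also made by macrophages (chr1:71585473-71653280), had a median of 4.35 in spleen (3.65 to 5.11) and of 4.50 in bone marrow (3.44 to 5.12). Its difference was -0.02 (95% interval -0.28 to 0.23, adjusted p = 0.879), and quantile normalization or scaling to the median turned the sign, to 0.10 and 0.02. Sparc, osteonectin, a collagen-binding glycoprotein of bone, endothelium and platelets (chr11:55394159-55420080), fell by 1.34 in spleen (standard error 0.39, adjusted p = 0.0116), with 9 of 10 pairs in that direction (exact p = 0.0137). The other Sparc probe had a difference of -2.59 and was lower in 10 of 10 pairs, so that the size depended on the probe, and without the pair of STAT6-KO bone marrow arrays the first probe had -0.86 (adjusted p = 0.0384). On the first probe Sparc ranged from -2.01 to 1.08 in spleen (median -0.98) and from -0.68 to 2.08 in bone marrow (median 0.98). Bgn, biglycan, a small leucine-rich proteoglycan that binds collagen fibrils (chrX:73483601-73495936), ranged from -3.21 to -0.16 in spleen (median -1.73) and from -4.03 to -0.40 in bone marrow (median -2.04). It was not called, with a difference of 0.33 (interval -0.59 to 1.25, adjusted p = 0.536), and 20 of the 22 arrays lay within the range of the other tissue.

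Genes of contraction, cross-linking and protease inhibition gave mixed results. Acta2, the smooth muscle actin that marks myofibroblasts (chr19:34240336-34255585), had a median of 1.34 in spleen (0.42 to 2.10) and of 2.93 in bone marrow (1.73 to 3.64). It fell by 1.47 in spleen (standard error 0.22, adjusted p = 0.000125), in 10 of 10 pairs. Its probe was printed in 10 spots, whose SD on an array was 0.034 to 0.126 (median 0.066), which measures spots and not the variation between arrays. Lox, lysyl oxidase, which starts the cross-linking of collagen, was well above background on 1 of 11 spleen and 4 of 11 bone marrow arrays, and its other probe on 0 and 3. The fitted difference of Lox was -1.54 (standard error 0.46, adjusted p = 0.0138), but most of these values are bounds. With low signals set to the lowest signal well above background of their array it was -0.52 (adjusted p = 0.124), no longer called, and no fold was derived. Timp1, an inhibitor of matrix metalloproteinases that is induced by inflammation (chrX:20870166-20874737), ranged from -6.10 to -4.22 in spleen (median -5.22) and from -5.62 to -2.50 in bone marrow (median -4.99). Its difference of -0.68 was not called (interval -1.35 to -0.01, adjusted p = 0.0783), and 17 arrays lay within the range of the other tissue. Without the pair of arrays that stood apart Acta2 had -1.65 and Lox -1.18, both called, and Timp1 -0.34, not called.

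Other matrix genes leaned to bone marrow as well. Of 26 tested genes of a further matrix list 18 were lower in spleen and 3 higher, with a median difference of -1.33 beside -0.17 over all genes tested. The 32.1% lower and 22.4% higher over all genes tested apply to the counts of this and the next lists in the full fit. They do not apply to the counts without the pair of arrays, which are given with no share over all genes. Without the pair of arrays that stood apart 16 of the 26 were lower and 3 higher (median -1.08). The type VI collagen genes Col6a3 (-3.13) and Col6a1 (-2.72) and the keratan sulfate proteoglycan Lum (-2.60) had the largest fitted falls. Col6a3 was well above background on 0 of 11 spleen arrays and Lum on 2, so that their values there are mostly bounds; with low signals set to the lowest signal well above background of their array they had -1.59 and -1.90, still called. Col14a1, a collagen bound to fibril surfaces, was higher by 3.54, Ecm1 by 0.93 and the proteoglycan Vcan by 0.65. Of 22 genes that process matrix 11 were lower and 3 higher (median -0.47), and 10 and 3 without the pair of arrays. Timp3, a matrix-bound metalloproteinase inhibitor (-4.35), the procollagen protease Adamts2 (-2.81) and the neutrophil gelatinase Mmp9 (-2.57) fell most. P4ha1 (1.70) and P4ha2 (0.84), which hydroxylate collagen prolines, and Mmp19 (1.04) rose.

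Marker lists of the cells that could carry these transcripts were set beside the tissue difference, and their part in it was not tested. The RNA came from cells isolated as CD11b+, a step that selects against cell types without CD11b, and the purity was not measured here. Of 9 bone marrow stroma and osteoblast genes 5 were lower in spleen and 1, Alpl, was higher. Cxcl12, the chemokine of marrow stroma, fell by 5.58, Bglap2 (osteocalcin) by 2.28 and Ibsp (bone sialoprotein) by 1.85, and its probe was the brightest of the list on each bone marrow array. The summed signal of this list was 0.949 to 3.97 in spleen and 1.32 to 7.96 in bone marrow, with 6 to 9 and 8 or 9 of its 9 genes well above background, and Dmp1, of osteocytes, was at background on most arrays. Of 8 fibroblast genes, of which Dcn and Lum also belong to the further matrix list, 4 were lower and 2 higher; Pdpn (-3.14) and Lum had the largest fitted falls, and Thy1, which T cells also carry in mice, was higher by 3.79. The fibroblast sum was 3.29 to 19.7 in spleen, with the Thy1 probe the brightest on all 11 arrays, and 1.00 to 2.05 in bone marrow, with 5 to 8 and 6 to 8 of its 8 genes well above background. Of the 8 fibroblast genes Tcf21 was not well above background on most arrays, and Lum on most spleen arrays. Pdgfra was well above background on every array but WT and HDC-KO bone marrow at MI 1 week. Dcn, Fap, Pdpn and Thy1 were well above background on every array, and Ddr2 on most. Smooth muscle and pericyte genes were lower in 2 of 6, near the share over all genes (Rgs5 -3.55, Mylk -1.10), with sums of 0.460 to 0.795 in spleen and 0.589 to 1.16 in bone marrow, 3 to 5 and 3 to 6 genes well above background, and the probe of Tagln, also of the further matrix list, the brightest. Rgs5 was not well above background on any spleen array and had -1.89 with low signals set to that floor. Endothelial genes were lower in 3 of 7 (Emcn -2.14, Tek -1.29, Cdh5 -0.88) and higher in 1, the sinusoidal receptor Stab2 (2.68), with sums of 7.33 to 16.6 in spleen and 5.14 to 11.6 in bone marrow and 5 or 6 and 5 to 7 genes well above background. The probe of Stab2 or Plvap was the brightest in spleen and mostly Plvap in bone marrow. Emcn was not well above background on any spleen array and Tek on 1 of 11, and with the floor they had -0.59 and -0.84.

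Blood cell lists were set beside these. Among the megakaryocyte and platelet genes lower in spleen were Ppbp (-2.69) and Pf4 (-1.98), with list sums of 2.30 to 7.73 in spleen and 8.58 to 39.0 in bone marrow and mostly the Pf4 probe the brightest. Neutrophil granule genes were lower in 7 of 7 (Elane -3.62), with sums of 105 to 226 and 264 to 470 and mostly the Camp or Ltf probe the brightest, and CD11b+ myeloid genes in 5 of 7, Itgam, which encodes CD11b, by -1.47. Macrophage genes were higher in 8 of 8 (Mrc1 2.22, Marco 2.14, Vcam1 2.04), B cell genes in 4 of 4 (Ms4a1 3.40), T cell genes in 3 of 4 (Cd3g 4.29; Cd3d was lower) and erythroid genes in 2 of 4 (Alas2 1.17). Without the pair of arrays these were 6 of 7 neutrophil granule and 3 of 7 CD11b+ myeloid genes lower, and 8 of 8 macrophage, 4 of 4 B cell, 3 of 4 T cell and 0 of 4 erythroid genes higher by limma. The macrophage sum was 13.2 to 31.8 in bone marrow, with 7 or 8 of 8 genes well above background. In spleen and in bone marrow the B cell sums were 18.2 to 70.8 and 1.57 to 25.8 (Cd79b the brightest probe), the T cell sums 3.72 to 15.2 and 11.5 to 21.5 (Cd3d), and the erythroid sums 5.32 to 46.9 and 2.38 to 25.5 (Hba-a1). All genes of the platelet, neutrophil granule, B cell, T cell and erythroid lists were well above background on every array.

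Promoter sequences of 7 of the 10 members were used (RefSeq, GRCm38.p6), and those of Col1a2, Col3a1 and Postn are shown because these genes carried the opposite tissue differences. The promoters of Col1a1, Fn1 and Lox were not used here. Each sequence is the 250 bases before the start of the gene on the plus strand, at chr6:4505368-4505617 for Col1a2, chr1:45311288-45311537 for Col3a1 and chr3:54359017-54359266 for Postn, whose more upstream start was taken. The letters TATAAA and CCAAT were searched on both strands, as TTTATA and ATTGG on the other, and matches are in capitals.
Col1a2: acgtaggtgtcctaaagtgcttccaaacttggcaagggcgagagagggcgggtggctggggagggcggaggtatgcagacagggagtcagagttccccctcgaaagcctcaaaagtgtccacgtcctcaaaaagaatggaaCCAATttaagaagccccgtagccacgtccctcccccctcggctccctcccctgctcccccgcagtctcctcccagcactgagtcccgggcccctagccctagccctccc
Col3a1: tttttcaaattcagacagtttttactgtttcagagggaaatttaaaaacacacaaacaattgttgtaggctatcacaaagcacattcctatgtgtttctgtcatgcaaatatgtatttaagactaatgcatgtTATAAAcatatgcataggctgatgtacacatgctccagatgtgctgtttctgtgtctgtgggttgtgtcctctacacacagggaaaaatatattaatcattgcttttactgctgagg
Postn: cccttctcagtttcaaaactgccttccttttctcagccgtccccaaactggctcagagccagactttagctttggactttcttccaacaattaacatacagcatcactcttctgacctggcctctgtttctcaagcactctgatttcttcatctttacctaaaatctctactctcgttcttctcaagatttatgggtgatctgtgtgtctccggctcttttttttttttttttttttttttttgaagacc
CCAAT was found in Col1a2, 109 bases before the start, and among the other matched members in Timp1. TATAAA was found in Col3a1, 117 bases before the start, and Postn held neither. Over 32851 promoters of the same length 33.8% held CCAAT and 12.4% held TATAAA. A match describes the letters only.

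Genotype was compared within each tissue, with time after MI as an additive term; genotype cannot be told apart from the slide here. In spleen Col1a1 was below WT in STAT6-KO mice. It stood at -2.13, -2.46, -1.84 and -1.45 in WT spleen (control, then 1, 2, and 4 weeks after MI) and at -3.74, -3.29, -3.23 and -2.57 in STAT6-KO spleen. The groups did not overlap, and in each the 4 weeks array was the highest. Col1a1 fell by 1.23 (standard error 0.17, limma adjusted p = 0.0206), lower at 4 of 4 times, the 1 of 9 tested members called in a background of 1.95%. The call was lost without any of the 1, 2 or 4 weeks time points (adjusted p 0.0575, 0.0907 and 0.124) and without the STAT6-KO MI 4 weeks array (0.0506), while the difference stayed between -1.37 and -1.11 when a time point was left out. Fitted on the 2 genotypes alone it was -1.23 and not called (limma adjusted p = 0.0543). Normexp background correction brought it to -0.57 (adjusted p = 0.549). Its partner chain Col1a2 had 0.15 (adjusted p = 0.722). In bone marrow Col1a1 had 0.81 for the same genotypes (adjusted p = 0.511), and the difference between the tissues, -1.65, was not called (adjusted p = 0.514). Without the pair of bone marrow arrays that stood apart these were 0.45 and -0.24. Of the 24 further matrix, 21 processing, 8 fibroblast and 9 stroma genes tested in STAT6-KO against WT spleen, 0 were called by limma at an adjusted p under 0.05; of the other lists the granule gene Ngp was lower, by -1.25.

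Postn and Sparc in STAT6-KO spleen had an unadjusted p under 0.05 and did not pass the threshold by limma. Postn had 1.85 (standard error 0.57, adjusted p = 0.118), higher at 3 of 4 times, and without the control arrays it was 2.67 (adjusted p = 0.0180). Sparc had -1.13 (adjusted p = 0.126), lower at 3 of 4 times. The remaining 6 members tested lay between -0.85 (Col3a1) and 0.30 (Acta2), and Lox was left out, being well above background on too few spleen arrays.

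In HDC-KO against WT spleen limma called 0 of 9 members, 2 having an unadjusted p under 0.05, in a background of 2.80%. Postn had 1.94 (standard error 0.64, adjusted p = 0.132), higher at 3 of 3 times by 1.86 to 2.79. Bgn had 0.76 (adjusted p = 0.171), higher at 3 of 3 times. HDC-KO spleen has no control array, and without the WT and STAT6-KO control arrays Postn was 2.35 (adjusted p = 0.0216). Sparc had 0.72 (adjusted p = 0.337), higher at 3 of 3 times by 0.84 to 0.98. Fitted on these genotypes alone, limma called 2609 genes in place of 742, and 3 members, Postn (2.35, adjusted p = 0.0108), Sparc (0.90, adjusted p = 0.0241) and Bgn (0.86, adjusted p = 0.0450). Of the lists named above, Thy1 (0.95) and the macrophage scavenger receptor Marco (2.31) were higher in HDC-KO spleen at an adjusted p under 0.05. Lum was called too, but it was well above background on 2 of the 11 arrays, and with low signals set to the floor it was not (adjusted p = 0.924).

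In bone marrow neither knockout moved a member past the threshold. For STAT6-KO limma called 0 of 10 members (1 with an unadjusted p under 0.05, background 4.61%), and for HDC-KO 0 of 10 (1 with an unadjusted p under 0.05, background 0.443%). Col3a1 stood at -0.33 in STAT6-KO control bone marrow, at 2.18 at 2 weeks and at -2.62 at 4 weeks, and WT bone marrow had -1.16, -2.02 and -1.46 at these times. The fitted difference of Col3a1 was 1.24 (standard error 0.81, adjusted p = 0.413), and of Postn 1.93 (adjusted p = 0.259). Both turned on the arrays with cardiac transcripts: without the STAT6-KO MI 2 weeks array they were 0.05 and 0.69, and without the control array as well -0.71 and -0.47. The unadjusted call was Lox (1.19, adjusted p = 0.146), whose WT values are all bounds. Its probe cleared background on 3 of 3 STAT6-KO arrays and on 0 of 4 of WT, and the other Lox probe on 1 of 3 and 1 of 4. With low signals set to the floor Lox had 0.84, on the other probe 0.12, and without both arrays 0.46. In HDC-KO bone marrow it was Bgn, at -1.38 (standard error 0.45, adjusted p = 0.172) and lower at 3 of 4 times. Bgn in HDC-KO bone marrow stood at -2.06, -4.03, -2.04 and -3.00 (control, then 1, 2, and 4 weeks), and in WT at -2.08, -1.68, -1.45 and -0.40. The HDC-KO 1 week array was the lowest bone marrow array for 5 of 10 members, beside 9.41% of all genes. The WT 4 weeks array was the highest for 7 of 9 stroma and osteoblast genes, beside 14.8% of all genes.

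Among the lists Ccn1 (1.18), Bmp1 (0.73) and Cd8a (0.61) were higher in STAT6-KO bone marrow at an adjusted p under 0.05, and without the pair of arrays they had 0.78, 0.56 and 0.61 and were not called. Higher in HDC-KO bone marrow were Gp9 (1.08) and Cd8a (0.74).

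The genotype effect was compared between tissues by an interaction. Limma called 0 of 10 members for STAT6-KO (1 with an unadjusted p under 0.05, background 0.347%) and 0 of 10 for HDC-KO (1 with an unadjusted p under 0.05, background 0.991%). For STAT6-KO the effect on Sparc was lower in spleen by -1.53 (standard error 0.63, adjusted p = 0.324), and by -0.52 without the pair of arrays that stood apart. For HDC-KO the effect on Bgn was higher in spleen by 2.17 (standard error 0.85, adjusted p = 0.270).

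Time after MI was compared with control within each combination of genotype and tissue; the 3 comparisons share the control arrays, and time cannot be told apart from the position on the slide. At 1 week Sparc was the 1 of 10 members called, in a background of 5.48%. The WT arrays of this time stood apart. They had the lowest shares of spots well above background, 70.4% in spleen and 71.3% in bone marrow, against at least 75.1% elsewhere. WT bone marrow was the lowest of its tissue for 4 of 4 B cell and 4 of 4 erythroid genes (14.5% of all genes). WT spleen was the highest of its tissue for 6 of 7 neutrophil granule genes (11.4% of all genes). The part of this in the 1 week values was not tested. Sparc went from 0.84 in control to -2.01 at 1 week in WT spleen and from -1.34 to -1.67 in STAT6-KO spleen. In bone marrow it went from 0.87 to 0.05 in WT and from 1.65 to -0.68 in HDC-KO mice. On this probe it fell in 4 of 4 sets, by 1.56 in the fit (standard error 0.38, limma adjusted p = 0.0302). The call held without the arrays that stood apart (-1.66, adjusted p = 0.0235), and was lost on the other Sparc probe (-1.12, adjusted p = 0.168), which fell in 3 of 4 sets and went from -4.22 to -3.40 in STAT6-KO spleen. It was also lost with normexp, and without HDC-KO bone marrow, HDC-KO spleen, WT bone marrow or WT spleen (adjusted p 0.0634 to 0.206, with differences of -1.76 to -1.20).

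Some genes of the platelet, endothelial, B cell and T cell lists were called lower at 1 week, as were 872 of 27727 genes or transcripts. Of these cells, platelets and endothelium are known to express Sparc. Among the megakaryocyte and platelet genes that fell were the chemokine Ppbp, by 1.84, and the integrin Itga2b, by 0.99. Of 7 endothelial genes 2 were called, Cdh5, which fell by 1.65, and Tek. Tek was well above background on 10 of 22 arrays, and with low signals set to the floor it had -0.03 and was not called. The platelet sum went from 7.73 to 2.30 in WT spleen, 2.74 to 3.90 in STAT6-KO spleen, 17.4 to 8.58 in WT bone marrow and 39.0 to 9.91 in HDC-KO bone marrow. Of 22 processing genes Timp3 fell by 1.04 and Plod3, a lysyl hydroxylase, rose by 0.93. In the other lists Thy1 (-1.10), Cd3g (-1.33), Cd79a (-1.10) and Ms4a1 (-1.85) fell and Ptprc (0.55) rose. Of the genes used to check the labels, Xist (-1.33) fell and Stat6 (0.56) rose. With low signals set to the floor Xist had -1.07 and was not called (limma adjusted p = 0.0657). Neither Xist (-1.17) nor Stat6 (0.53) was called without the pair of arrays. Without the pair of arrays that stood apart Itga2b (-1.01), Plod3 (0.90), Cd3g (-1.33) and Cd79a (-1.06) were no longer called, with differences about as large. The further matrix list had 0 of 26 genes called by limma at 1 week, with a median of -0.16 beside -0.06 over all genes. Without the pair of arrays 3 were called lower (median -0.25). No share over all genes is given for that fit, so that this count alone says little about the list. The part of these cells in the fall of Sparc was not tested.

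Fn1 was lower than control in every set with a control array at 1, 2, and 4 weeks. Fn1 stood at 5.11 in WT control spleen and at 4.49, 3.65 and 4.35 afterwards, and at 4.80, 4.59, 4.26 and 3.73 in STAT6-KO spleen. In WT bone marrow it had 4.94, then 4.55, 3.81 and 4.93, and in HDC-KO bone marrow 4.61, then 4.07, 4.03 and 4.19. The control array was the highest of each of these sets. At 2 weeks limma called 0 of 10 members (1 with an unadjusted p under 0.05, background 0.0721%), Fn1 having -0.86 (standard error 0.23, adjusted p = 0.194), lower in 5 of 5 sets. At 4 weeks it called 0 of 10 (1 with an unadjusted p under 0.05, background 2.51%), Fn1 having -0.80 (standard error 0.23, adjusted p = 0.0770), lower in 5 of 5 sets, in WT bone marrow by -0.02. Both counts use the same control array of each set, so a high control array alone would give them together. Without the pair of arrays Fn1 had -0.89 at 2 weeks and -0.61 at 4 weeks, neither called. With quantile normalization Fn1 at 4 weeks had -0.94 (adjusted p = 0.0376) and with scaling to the median -0.90 (adjusted p = 0.0486). Bgn had -1.33 at 1 week (standard error 0.45, adjusted p = 0.0924), lower in 3 of 4 sets, and -1.76 over spleen arrays alone (adjusted p = 0.0273). At 2 and 4 weeks Bgn had -0.52 and 0.40, neither called. At 4 weeks Postn had -1.44 (adjusted p = 0.309), at the 0.126th percentile of all differences in the full fit and lower in 4 of 5 sets. Without the pair of arrays Postn had -1.18 at 4 weeks, not called. Among further matrix genes the macrophage product Spp1, osteopontin, was higher at 4 weeks by 0.87 and Vcan lower by -3.00, the 2 of 26 called; without the pair of arrays they had 0.89 and -2.82, about as large, and were not called (adjusted p 0.0716 and 0.0561).

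Within a tissue the members did not form 1 pattern. In bone marrow Col3a1 and Postn ran together over 11 arrays (r 0.975, rho 0.964), also without the 2 farthest arrays (r 0.976), and Col1a1 and Col1a2 had r 0.888 (rho 0.900; 0.646 without the 2 farthest). In spleen Col1a1 and Col1a2 had r 0.301 (rho 0.327; 0.488 without the 2 farthest). Col1a1 and Col3a1 had r 0.372 in bone marrow and -0.532 without the 2 farthest, and in spleen r 0.759 and 0.484. Sparc and Bgn had r 0.764 in spleen (rho 0.818, and 0.634 without the 2 farthest). The cardiac median followed Timp1 (r 0.920), Lox (0.824), Postn (0.808) and Col3a1 (0.753) in bone marrow, and without the 2 farthest arrays these were 0.485, 0.253, -0.495 and -0.410, so that all 4 relations were weaker or of the other sign without those arrays. Lox was not well above background on 7 of the 11. In spleen the r of the cardiac median with the members lay between -0.425 (Timp1) and 0.463 (Bgn). Col1a2, Col3a1 and Acta2 had 0.425, 0.354 and 0.299 there, and 0.031, -0.167 and -0.671 without the 2 farthest spleen arrays. These are descriptions over arrays that share slides by genotype.

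**Figure D2:**
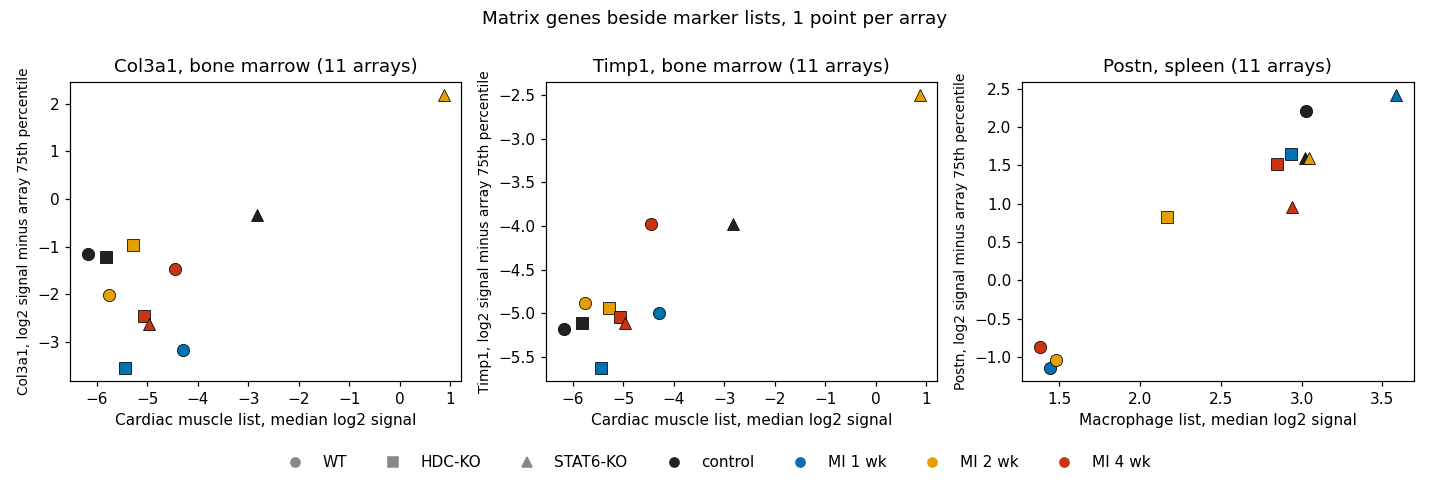
Log2 signal of Col3a1 and Timp1 against the median of the cardiac muscle list over 11 bone marrow arrays, and of Postn against the median of the macrophage list over 11 spleen arrays (both axes log2 signal minus the 75th percentile of the array), with 1 point per array, shape for genotype and colour for time after MI. The STAT6-KO MI 2 weeks array lies apart at a cardiac median of 0.87, and the WT spleen arrays after MI lie lowest for Postn, at -1.14 to -0.87.

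The genes whose pattern was most like the mean of Col1a1, Col1a2 and Col3a1 were looked up in each tissue, although the collagens did not run closely together in each. Of 16424 genes in spleen they were Rarres2, the adipokine chemerin (r 0.950, 0.927 without the 2 farthest arrays), Taf1d (0.927), the transcription factor Mef2b (0.915), Misp (0.912) and the RNA export factor Alyref (0.912). Each was highest on the HDC-KO MI 4 weeks array, as were 24.7% of all genes. Of 16851 genes in bone marrow they were Armc2 (0.865), Nppb, the natriuretic peptide of heart muscle (0.862), Ccdc80 (0.862), Adprhl1 (0.854) and the growth factor Tgfb3 (0.838). Each was highest on the STAT6-KO MI 2 weeks array, and without the 2 farthest arrays their r was 0.124, 0.171, 0.510, 0.305 and 0.736.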

How the data were processed

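RNA was measured on one-colour Agilent arrays. The authors scanned them with Agilent Feature Extraction 11.0.1.1, and the deposited values are spot intensity on a linear scale, background-subtracted and spatially detrended per the file headers and not scaled between arrays. GCRMA, named in the submitters' processing notes, had not been applied to these values. Outlier spots (3055) were left out and spots of a probe averaged; log2 signals were reduced by the 75th percentile of each array. The probe with the highest mean over 22 arrays stood for a gene, and a gene entered a fit if at least 2 of its arrays were well above background.

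Fits used limma 3.58.1 in R 4.3.3 and the data.table package (1.17.8), with Benjamini-Hochberg adjustment over all genes and the moderated 95% interval. Tissue was paired by genotype and time, genotype fits took 11 arrays with time as a term, and MI fits took the 6 sets as a block. As no condition had replicates, the variation of an effect over times or sets served as error. Fits were tested on simulated data. Plots used matplotlib 3.10.9 in Python 3.11.15.

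The members and lists were chosen with earlier results of these data known; the cardiac muscle list and the alternatives without arrays that stood apart, and the floor for list genes, were chosen after values were seen. Named are all members, up to 3 genes of each list with the largest rise and fall among those called, and the 5 genes per tissue most like the mean collagen pattern by Pearson r; a few others were chosen after their values were seen, and a gene withheld for evaluation was left out. Alternatives were normexp (offset 50, on the median spot signal), quantile, median and detected-probe scaling, a floor, other filters, other probes or their mean, other blocks or samples, slide as a random block, the methods' Student test and leaving out each time, pair or set. The 2 partial arrays, control HDC-KO spleen and STAT6-KO bone marrow at MI 1 week, were not used.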

Additional observations from a re-analysis of the deposited data

How the results depend on the processing

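Over the 26 alternatives of the tissue comparison 5 to 8 members were called (7 as reported), and Col1a1, Col1a2, Sparc, Postn and Acta2 kept direction and call in each that gave them a value; Postn, Lox and Timp1 had none with the filter on every array. In STAT6-KO against WT spleen, with 1 member called, the count was 0 with normexp, the 2 genotypes alone, the methods' test after Benjamini-Hochberg and without the STAT6-KO MI 4 weeks array, and 0 to 2 leaving out times. In HDC-KO against WT spleen, with 0 called, it was 3 with the 2 genotypes alone, where 2609 genes were called, and 0 to 1 leaving out times. At MI 1 week, with 1 called, it was 0 with normexp, the mean over probes, the other probes, bone marrow alone and additive terms, and 0 to 1 leaving out sets; over spleen alone Bgn was called and Sparc not. At MI 4 weeks, with 0 called, it was 1 with quantile and with median scaling. Fewer arrays entered the fits that left some out; otherwise the cause was not tested.

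The signs that turned among the values followed over all alternatives were of uncalled values. Fn1 between tissues (-0.02) was 0.10 with quantile, 0.0164 with median and 0.0622 with detected-probe scaling, -0.0842 to 0.0377 leaving out pairs, and 0.00034 and 0.0399 without the STAT6-KO bone marrow arrays (MI 2 weeks; with control). Bgn between tissues (0.33) was -0.27 without pairs with Xist. In STAT6-KO against WT bone marrow Col3a1 (1.24) was -0.14 to 2.36 leaving out times and -0.71 without both arrays, and Postn (1.93) was -0.47 without both. Other uncalled signs turned without both, among them Timp1 there (0.78 to -0.81) and in the STAT6-KO interaction Col3a1 (-2.50 to 1.90) and Postn (-0.70 to 1.64).

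Counts over all genes went from 15064 to 6111 by the methods' test with fold over 2 in the tissue comparison. Elsewhere the lowest and highest over alternatives were 4 and 964 for STAT6-KO spleen (517), 0 and 2609 for HDC-KO spleen (742), 0 and 1502 for STAT6-KO bone marrow (1248), 3 and 944 for HDC-KO bone marrow (120), 40 and 2092 at MI 1 week (1520), 0 and 595 at 2 weeks (20), 0 and 930 at 4 weeks (695), 0 and 484 for the STAT6-KO interaction (96) and 0 and 518 for the HDC-KO interaction (274), limma calling at least 3213 genes at an unadjusted p under 0.05 in each comparison as reported. The planned form without pairs with Xist could not be fitted, as 1 pair was left; the form given was added after seeing the data. Signal limits Lox, mostly not above background, and the number of arrays limits precision.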
